A study of Mus musculus with 122 samples.

Results

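Prss50 and Prss41 encode trypsin-like serine proteases of the testis. They are 2 of the 52459 genes of the RNA-seq table and were chosen by a rule that read measured values: both rise with CTCFL, and Prss41 falls strongly when CTCF is lost. The values that chose them are the rise of both genes in the CTCFL line and the fall of Prss41 after CTCF degradation. These are given below as descriptions, without a test. All other contrasts of Prss41, and Prss50 after IAA in the CTCFL line, are likewise described only, since their U and I libraries entered the choice. Tests were kept for Prss50 in the CTCF, LCL and CLC lines, after CTCF degradation and after doxycycline with or without IAA, and for the differences between those lines.

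CTCF is a zinc finger protein found in nearly all cells. It binds a long motif, halts cohesin as it extrudes DNA loops, and sits at many domain borders and promoters. CTCFL (BORIS) is its germline paralog, found mainly in the testis, and its N and C termini do not resemble those of CTCF. Prss50, also called TSP50, is a cancer/testis antigen that carries a threonine where related proteases have the catalytic serine. Prss41 is a membrane-bound protease of germ cells, one of several testis serine proteases that lie in clusters in the mouse genome.

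All cells were E14Tg2a mouse embryonic stem cells in which both alleles of endogenous Ctcf carry an auxin-inducible degron with eGFP, with the ligase Tir1 expressed from Rosa26. Indole acetic acid (IAA, 500 µM) therefore degrades endogenous CTCF. Each line also carried, at the Tigre locus, a doxycycline-inducible transgene fused to FLAG and mRuby2. The transgene was CTCFL, CTCF, LCL (the zinc fingers of CTCF between the CTCFL termini) or CLC (the zinc fingers of CTCFL between the CTCF termini). CLL and LLC, in which 1 terminus was exchanged, have no RNA-seq libraries. Every line came from a selected clone, so a line and its clone cannot be told apart. Libraries were untreated (U), treated with IAA (I), with doxycycline at 1 µg/ml (D), or with both (ID). The sample descriptions give 24 h of treatment, and 48 h for the CLL, LLC, RNase and mock ChIP-seq libraries, whereas the protocol text names 2 days for RNA-seq and for ChIP. For treated Hi-C cells the descriptions give 24 h, or 4 days for CLL, and the protocol 4 days. The 38 RNA-seq libraries comprised 3 U, 3 I, 3 D and 2 ID of the CTCFL line, 2 U, 3 I, 3 D and 3 ID of the CTCF line, and 2 of each condition of the LCL and CLC lines. Their depth, where it could be recovered from the table (36 libraries), ran from 6847072 reads in D replicate 3 of the CTCFL line to 49716769 reads, with a median of 26013018.

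The stem cell markers Pou5f1, Nanog, Sox2, Klf4, Esrrb, Zfp42, Tfcp2l1 and Dppa5a were abundant in every library, with a summed normalized count between 86575 and 280354. The sum moved with condition: in the CTCFL line it was 153344 to 167775 in U and 116159 to 116446 in I, and 123764 to 131300 in D and 86575 and 92535 in ID, where Prss50 was highest. Its part in the results was not tested. Of 9 male germ cell markers, Ddx4, Dazl, Sycp3, Sycp1, Stra8 and Tex101 were above the filter, whereas the spermatid genes Acrv1, Tnp1 and Prm1 had group means of at most 5.29. The transcripts that report the transgenes were read next. Ctcfl had 208 ± 16.5 normalized counts (SD, n = 3) in U and 8244 ± 1005 (n = 3) in D of the CTCFL line, and 200 ± 21.9 (n = 3) in I against 5514 ± 83.0 (n = 2) in ID. Both chimeras hold Ctcfl sequence. Ctcfl had 36.5 and 27.2 in U and 384 and 416 in D of the LCL line, and 41.4 and 42.7 in U and 1791 and 1829 in D of the CLC line. In the CTCF line the Ctcf transcript was 4701 ± 15.1 (n = 2) in U and 3748 ± 172 (n = 3) in D, so it did not rise in the libraries labelled D, and 4408 ± 198 (n = 3) in I against 4063 ± 133 (n = 3) in ID. Whether the Ctcf counts include the transgene was not given in the sources used here. The chimeras hold Ctcf sequence as well. In the CLC line the Ctcf mean was 8389 in U and 10121 in D, and 6450 in I against 10829 in ID. In the LCL line it was 8569 in U and 6904 in D, and 7867 in I against 7079 in ID. The share of transgene reads in these counts was not tested. FLAG peaks were listed for D and ID of the CTCF line, whose labels are used below as given. The paper reports transgenic CTCF in D and ID by FLAG western blot, and its mRuby2 by flow cytometry and microscopy. It also states that RNA-seq and ChIP-seq showed the transgenes expressed and bound only with doxycycline.

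Prss50 (ENSMUSG00000048752) lies on the plus strand at chr9:110857967-110864629 (GRCm38), with 5 exons and 2 annotated start sites. Prss41 (ENSMUSG00000024114) lies on the minus strand at chr17:23836785-23844172, with up to 7 exons and 3 start sites within the promoter. The 5′ end of Prss41 overlaps Prss32, which runs in the opposite direction from 23843855. The libraries were made by a strand-preserving dUTP method, but whether reads were counted by strand was not given in the sources used here, so reads of this overlap cannot be assigned with certainty. Prss32 itself had a line mean of at most 3.15 normalized counts.

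Transgenic FLAG peaks lay over both promoters, and the sequence under them is shown because proteins with either set of zinc fingers were found there. The 14-base core of the CTCF motif was searched on both strands within 50 bp of each summit, and the best match is given as the number of positions that differ. Capitals mark this match, and each sequence is read 5′ to 3′ on the strand of the match (GRCm38). The first is the 250 bases before the RefSeq start of Prss50, the other 3 are 30-base windows around matches at the Prss41 promoter, in the first part of Prss41, and in an intron of the neighbouring gene Tmie.

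Prss50 upstream, chr9:110857714-110857963, plus strand: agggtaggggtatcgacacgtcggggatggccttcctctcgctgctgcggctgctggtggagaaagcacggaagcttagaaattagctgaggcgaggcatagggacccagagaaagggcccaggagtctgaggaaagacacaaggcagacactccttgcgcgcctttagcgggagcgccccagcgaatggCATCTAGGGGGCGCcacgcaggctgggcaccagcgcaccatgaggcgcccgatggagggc

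Prss41 promoter, chr17:23844188-23844217, minus strand: tgacctgtCCCCTAGAGGGCGCcactaagc

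Prss41 intron, chr17:23843329-23843358, minus strand: ccattggcCCTGCAGGGGGCGCcactctaa

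Tmie intron, chr9:110871239-110871268, minus strand: tggtatagCCACCTGGTGGCGCtacattac

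The Prss50 match ends 47 bases before the RefSeq start of the printed sequence, which is 50 before the GENCODE start, and differs from the core at 2 positions, the second and the third. It was the best match in 19 of the 20 FLAG libraries of the 6 transgenes that had a summit there. The Prss41 promoter match, whose near end lies 24 bases before the outermost start, differs at 1 position but was the best match under the summit in only 5 of 20 such libraries. In both D libraries of CTCFL the summits stood elsewhere in the same promoter, and the best match there differed at 4 positions. The match at the Prss50 promoter is identical at 11 of 14 bases both to that in the Prss41 intron and to that at the Prss41 promoter. The 30-base windows share a run of 12 bases for the first pair and of 9 for the second. Over all CTCFL sites in D, 25.6% of 22294 held a match with at most 2 differences, against 50.2% of 30317 sites of CTCF in ID. Among 32851 RefSeq promoters of 300 bases, 7.77% held a match with at most 2 differences and 1.44% one with at most 1. A match is only a description of the letters.

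In the CTCFL line, Prss50 was low without doxycycline and high with it. Its normalized counts were 90.2, 107 and 75.5 in U and 77.4, 76.9 and 64.3 in I. With doxycycline they were 950, 925 and 936 in D and 1359 and 1282 in ID. The D and ID libraries were far above all U and I libraries, and both ID libraries were above all D libraries. The log2 fold change, here always on the scale of log2(normalized count + 1), was 3.37 (SE 0.157) for D against U, 4.17 (SE 0.176) for ID against I, and 3.86 (SE 0.176) for ID against U. These are 10.3-fold, 18.0-fold and 14.5-fold higher levels. Over all genes, 5.9% of 16840 were called for D against U and 7.83% for ID against I in this line. Genes were called where the p from limma, adjusted by Benjamini-Hochberg over all genes tested, was under 0.01 and the absolute log2 fold change exceeded 1. These contrasts chose the gene, so the shares are background only. In bulk RNA, more cells that express a gene cannot be told apart from more RNA per cell.

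Prss41 also rose in this line but had a second feature, its near absence after IAA. Its normalized counts in the CTCFL line were 26.9, 53.4 and 19.7 in U and 1.86, 3.99 and 0.91 in I. They were 164, 229 and 195 in D and 248 and 154 in ID. All I libraries were below all U libraries, and the D and ID libraries overlapped each other above both. The log2 fold change was -3.39 (SE 0.449) for I against U, 2.63 (SE 0.449) for D against U, 6.03 (SE 0.502) for ID against I and 2.64 (SE 0.502) for ID against U.

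The fall of Prss41 after IAA was found in every line. In the CTCF line it had 111 and 118 normalized counts in U and 2.90, 3.41 and 0 in I, a log2 fold change of -5.48 (SE 0.506). In the LCL line it had 14.8 and 11.7 in U and was listed at 0 in both I libraries. In the CLC line it had 13.5 and 21.4 in U and was again at 0 in both. With 3 reads over the group as the limit that a count of 0 allows, the I level was at least 13.1-fold lower than U in each of these lines. This limit covers counting error only. Prss41 had a mean of 8.71 in the LCL line and 9.66 in the CLC line, under the minimum of 10, and was not tested there.

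After IAA, Prss50 had a log2 fold change for I against U of -0.31 (SE 0.157) in the CTCFL line, where the ranges overlapped, given without a test. The rule had not used the other lines for this gene. In the CTCF line the counts were 86.1 and 84.0 in U and 33.9, 38.6 and 60.4 in I. All 3 I libraries were below both U libraries, and the log2 fold change of -0.97 (SE 0.249) had an adjusted p of 0.00623 in limma but missed the fold threshold of the call. Without I replicate 3 it was -1.21 (adjusted p = 0.00121) and was called. In the LCL line the counts were 20.5 and 17.9 in U and 25.0 and 10.5 in I, and in the CLC line 22.0 and 23.7 in U and 18.8 and 42.5 in I. The I libraries spanned the U libraries in both, with log2 fold changes of -0.22 (SE 0.442, adjusted p = 0.727) and 0.30 (SE 0.378, adjusted p = 0.546). Prss50 was thus called in 0 of these 3 lines by the main limma fit, edgeR or DESeq2. A limma fit that took the replicate number as a block called it in the CTCF line, as given under the processing below. The unadjusted p of the main limma fit was under 0.05 in 1, the CTCF line. Of all genes tested, 10.9%, 9.58% and 12.8% were called for I against U in the CTCF, LCL and CLC lines.

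In the libraries labelled D and ID of the CTCF line, where Ctcf RNA did not rise, Prss50 was called in neither contrast. It had 87.4, 112 and 91.2 normalized counts in D and 60.3, 83.3 and 74.2 in ID. All D libraries were above both U libraries, but by little: the log2 fold change was 0.18 (SE 0.249, adjusted p = 0.655). For ID against I it was 0.73 (SE 0.222, adjusted p = 0.0188), with ranges that overlapped, and it was not called. Across all genes 0.455% were called for D against U and 5.06% for ID against I in this line.

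Prss41 was higher in the libraries labelled ID of the CTCF line than in I. They had 32.6, 23.5 and 19.7 normalized counts, above all 3 I libraries and below both U libraries. The log2 fold change for ID against I was 3.32 (SE 0.452), 9.95-fold, and is given without a test, since the I libraries are those of the fall that chose the gene. Without I replicate 3, which was at 0, it was 2.63. In D the counts were 127, 133 and 146, all above the U libraries, with a log2 fold change of 0.24 (SE 0.506), again without a test.

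Prss50 was higher with LCL, which holds the zinc fingers of CTCF but the termini of CTCFL. The counts were 99.9 and 107 in D against 20.5 and 17.9 in U, and 41.2 and 89.0 in ID against 25.0 and 10.5 in I. Neither pair of groups overlapped, but the ID libraries differed widely from each other. The log2 fold change was 2.37 (SE 0.442, adjusted p = 0.000694), 5.17-fold, for D against U, and 1.83 (SE 0.442, adjusted p = 0.00206), 3.56-fold, for ID against I. Both were called by limma, where 1.91% of all genes were called for D against U and 8.49% for ID against I. With no filter on low values both calls were lost (adjusted p = 0.174 and 0.170). Both rest on 2 libraries a group. Leaving out D replicate 1 or D replicate 2 gave 2.42 (adjusted p = 0.0108) and 2.32 (adjusted p = 0.0175), and leaving out I replicate 2 or ID replicate 2 gave 1.24 (adjusted p = 0.0410) and 1.29 (adjusted p = 0.0559). In these 4 fits the call was lost, and a group of 1 library was taken to vary like the others.

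CLC, with the reverse arrangement, gave smaller values. Prss50 had 60.1 and 54.6 normalized counts in D against 22.0 and 23.7 in U, and 61.7 and 56.5 in ID against 18.8 and 42.5 in I. All D and ID libraries were above all U and I libraries. Over all genes the U libraries of this line differed by little more than sampling noise, as given under the processing below. The log2 fold change was 1.29 (SE 0.378, adjusted p = 0.0635) for D against U and 1.03 (SE 0.378, adjusted p = 0.0958) for ID against I. The second was 0.46 without I replicate 1 and 1.60 without I replicate 2. Neither was called, where 0.6% and 1.95% of all genes were. In a fit of all 4 lines together the first had an adjusted p of 0.00681 and was called.

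Prss41 stayed low in the ID libraries of the LCL and CLC lines. It had 20.1 and 17.3 counts in D and 0 and 5.65 in ID of the LCL line. In the CLC line it had 11.6 and 28.5 in D and 2.26 and 0 in ID. The ID and I libraries overlapped at 0 in both lines, and at this depth a small return could not be told from none.

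**Figure D1:**
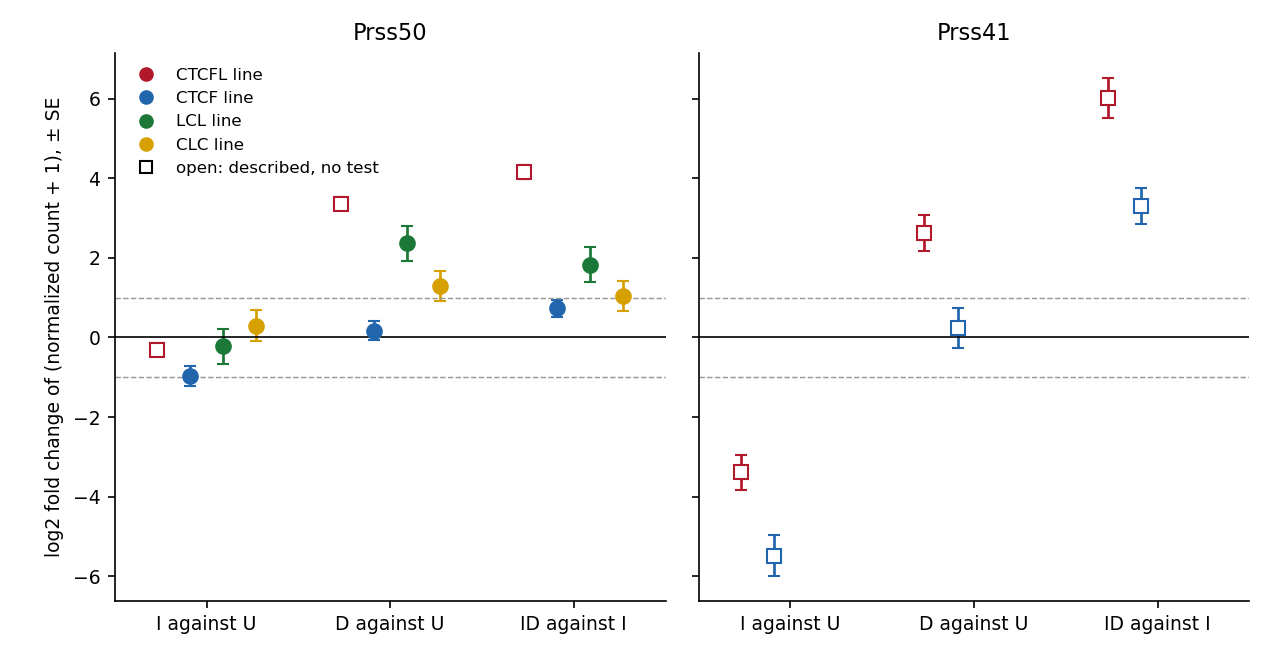
Log2 fold change of Prss50 (left) and Prss41 (right), with its SE from limma, for 3 contrasts in each line, where filled circles were tested and open squares are described only; dashed lines mark a log2 fold change of 1. For Prss50 the CTCFL line stands above LCL, LCL above CLC and CLC above CTCF after doxycycline, as estimates of which, between lines, only LCL minus CTCF for D against U was called and no difference from the CTCFL line was tested, and Prss41 in the LCL and CLC lines is not shown because it was under the filter.

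Whether the CTCF, LCL and CLC transgenes differed was tested as an interaction in 1 limma fit of all 38 libraries and 16480 genes, over 6 contrasts. For Prss50, the D against U change was larger in LCL than in CTCF by 2.19 (SE 0.461, adjusted p = 0.00240, 95% interval 1.25 to 3.14), which was called, as were 1.03% of all genes. The ID against I difference between the same lines was 1.10 (adjusted p = 0.0511, interval 0.202 to 2.00), where 10.5% of all genes were called. Leaving out single libraries moved this value widely, and some such fits called it, as given under the processing below. LCL and CLC, which hold opposite parts of the 2 proteins, differed by 1.08 (adjusted p = 0.251, interval 0.0966 to 2.06) for D against U and by 0.80 (adjusted p = 0.223, interval -0.185 to 1.78) for ID against I, which was 0.21 to 0.25 without I or ID replicate 2 of the LCL line or I replicate 2 of the CLC line, and 1.34 to 1.39 without I or ID replicate 1 of the LCL line or I replicate 1 of the CLC line. Neither was called, against 0.346% and 7.33% of all genes, and the intervals do not show that the chimeras act alike. CLC minus CTCF was 1.12 (adjusted p = 0.153, interval 0.174 to 2.06) for D against U and 0.30 (adjusted p = 0.642, interval -0.596 to 1.20) for ID against I, with 0.837% and 10.9% of all genes called. The sign of the second turned when some libraries were left out. The LCL minus CTCF call was lost with no filter on low values (adjusted p = 0.0128), and without U replicate 1 or 2 of the CTCF line, U replicate 2 of the LCL line or D replicate 2 of the LCL line, where the difference was 2.18, 2.21, 2.10 and 2.15 and the adjusted p 0.0110, 0.0127, 0.0109 and 0.0175.

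Prss41 is given here without a test, because the U and I libraries entered its choice and it was under the filter in the LCL and CLC lines. For D against U, LCL minus CLC was 0.37 (SE 0.999), LCL minus CTCF 0.23 (SE 0.957) and CLC minus CTCF -0.14 (SE 0.957) on the log2 scale. The sign of each turned under some alternative, as given under the processing below. For ID against I, CLC minus CTCF was -2.46 (SE 0.912), LCL minus CTCF -1.95 (SE 0.912) and LCL minus CLC 0.51 (SE 0.999). With DESeq2 on recovered reads the first of these 3 was -0.79 and the second turned to 0.12. edgeR made the first smaller still and also turned the second. The third turned when some libraries were left out.

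Ranked over the 16 groups, Prss50 ran from CTCFL ID (mean 1321) and CTCFL D (937) down to LCL U (19.2) and LCL I (17.8). The first 2 groups did not overlap each other or the third, LCL D (103). Of the 15 pairs of neighbours in the order, 11 overlapped. Prss41 ran from CTCFL ID (201) and CTCFL D (196), which overlapped, through CTCF D (135) and CTCF U (114), which did not, to LCL I and CLC I at 0, and 11 of 15 neighbouring pairs overlapped as well. The lines also differed before treatment: Prss50 had a U mean of 90.8 and 85.1 in the CTCFL and CTCF lines but 19.2 and 22.8 in the LCL and CLC lines. Prss41 had a U mean of 33.3, 114, 13.3 and 17.4 in the same order. Several marker lists also split the U libraries between these pairs of lines, though not all in the same direction. The primitive endoderm markers Gata4, Gata6 and Sox17 summed to between 2563 and 3088 in the CTCFL and CTCF lines and between 354 and 453 in the LCL and CLC lines, with Gata4 the most abundant. The trophoblast markers, nearly all Krt18, summed to between 608 and 775 against 202 to 258, and the two-cell markers to between 36 and 189 against 0 to 3.56. The primed epiblast markers Fgf5, Otx2 and Dnmt3b went the other way, with sums between 1616 and 1846 against 2237 to 2590. So did the stem cell markers, between 153344 and 187198 against 228008 to 272796. In the deposited table the column names of the LCL and CLC libraries alone carry the tag 2i, which often names a pair of inhibitors, of GSK3 and MEK. The study's methods list both in the medium of all clones, without setting lines apart. Differences of LCL or CLC from CTCF cannot be told apart from this split, and its part in the results was not tested.

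FLAG ChIP-seq placed the transgenic proteins at both promoters. A site was a region with a peak in both replicates, and a promoter was the 3 kb on either side of a start site. Prss50 had a promoter site in 8 of 12 conditions and Prss41 in 9, and 13.8% of 21755 protein-coding genes had a site in 8 or more and 7.48% in 9 or more. For both genes these were D and ID of CTCFL, LCL and CLC, D of CTCF and ID of CLL, to which Prss41 added ID of CTCF. LLC, whose replicate 1 listed 3737 and 9451 peaks in D and ID, had none at either gene, nor did D of CLL, with 2195 peaks in replicate 1. Replicate 2 alone listed a Prss50 summit in these 3 conditions, with a fold enrichment of 4.97 and 6.63 for LLC and 14.3 for CLL. In the CTCFL D condition 35.7% of all protein-coding genes had a promoter site, so a site there is common.

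In the CTCFL lists the Prss50 promoter ranked high. In D of CTCFL its summit, with a median position at 110857903, 64 bp before the start, had a fold enrichment of 6.46 and 8.60 in the 2 replicates and a −log10 q of 75.4 and 76.9. In ID the fold was 11.7 and 8.74 and the −log10 q 111 and 98.9. In these 4 libraries 99.8%, 99.8%, 99.9% and 99.9% of all summits had a lower −log10 q. The CTCF summit at the same place was weaker in ID than in D: in D its fold was 7.89 and 6.71, with a −log10 q of 18.9 and 27.6, whereas in ID replicate 1 had 3.72, a −log10 q of 3.73 that only 3.08% of summits fell below, and replicate 2 listed none. This difference was not tested. CLL in ID had 12.8 and 15.4, above 99.6% and 99.8% of the folds in its lists. LCL in ID had 7.54 and 7.62, and CLC in ID 6.09 and 9.46.

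The Prss41 promoter, with a median summit at 23844216, 44 bp before the start, held peaks with a lower fold than those of Prss50 in the CTCFL libraries. In D of CTCFL the fold was 4.63 and 4.57 and the −log10 q 26.7 and 16.4, above 87.5% and 75.3% of summits. In ID of CTCFL the fold was 4.94 and 5.05. In ID of CTCF it was 3.32 and 3.69, and 4.04% and 3.70% of summits had a lower fold. In ID of LCL it was 2.90 and 3.12 and of CLC 4.94 and 5.24. In most libraries the peak was near or below the library's median fold.

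**Figure D2:**
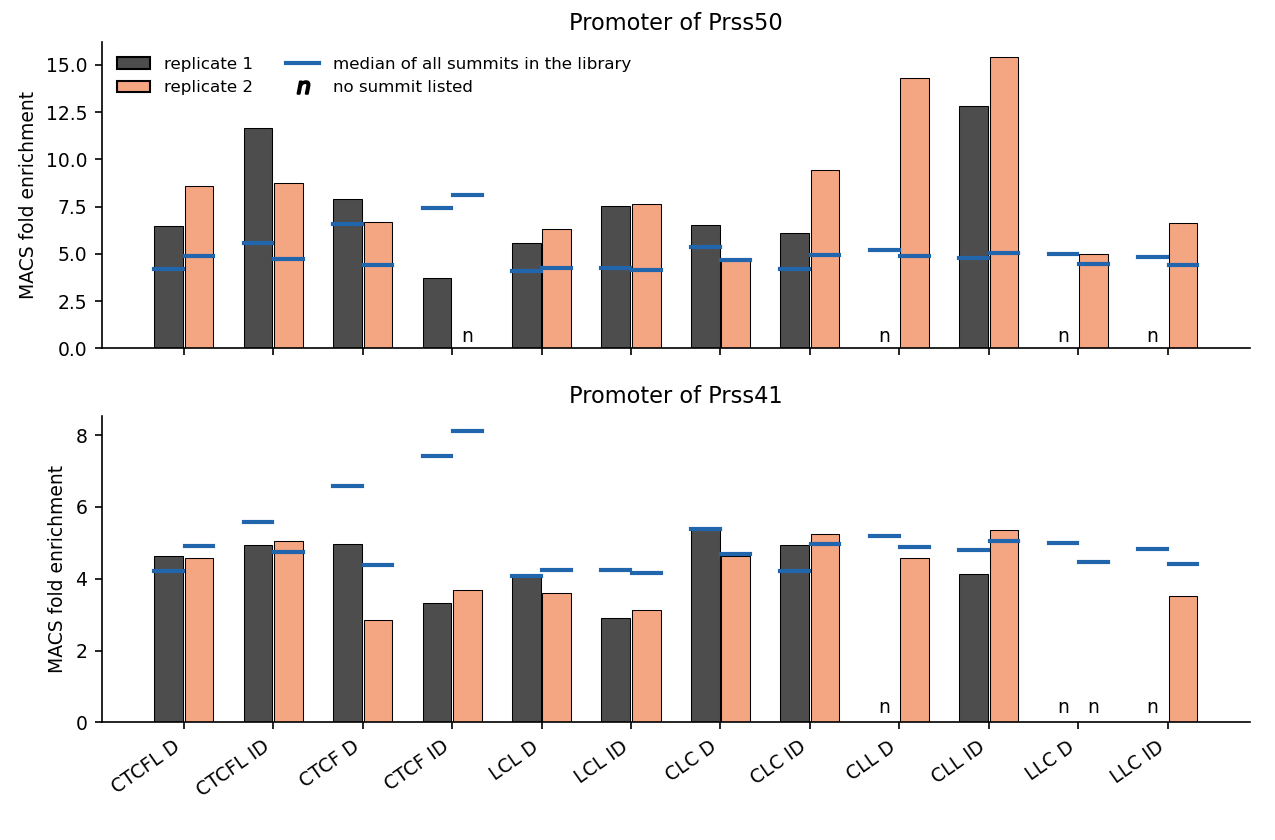
Fold enrichment given by MACS (vertical axis, linear from 0) at the summit over each promoter, for the FLAG libraries of 6 transgenes in D and ID, with replicates as bars, the median of all summits of the library as a blue line and n where no summit was listed. The Prss50 bars stand above the blue line wherever a summit was listed, except in replicate 1 of CTCF in ID. Most Prss41 bars stand near or below the blue line.

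Further FLAG sites lay around both genes. Within Prss41, a site in an intron, 800 bp after the start, was found in 8 of 12 conditions, with a fold of 4.58 and 5.84 in D of CTCFL. Of the 12 conditions, a site 2876 bp after the start was found in both replicates in 4, D and ID of CTCF and of LCL, and had a fold of 7.30 and 8.51 in ID of CTCF. On either side of Prss41, a site near Elob at 23829487 was found in 6 conditions and one in an intron of Prss32 at 23851627 in 7. The latter had a fold of 10.5 and 13.97 in ID of CTCF and 5.69 and 6.48 in ID of CTCFL. Near Prss50, a site in an intron of Tmie at 110871196, 13229 bp after the start, was found in 7 conditions. It had a fold of 10.5 and 13.4 in ID of CTCF and 6.05 and 5.12 in ID of CTCFL. In ID the fold of CTCF was thus above that of CTCFL at these outer introns and below it at the Prss50 promoter, a difference that was not tested.

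In ID cells treated with RNase or mock treated before ChIP, the Prss50 summit of CTCFL remained in both replicates of each, at 7.05 and 10.2 after the mock and 9.09 and 6.87 after RNase. For CTCF it was listed in replicate 1 only after the mock, at 4.19, and in both after RNase, at 7.31 and 5.43. At the summit next to the Prss41 start only RNase replicate 1 of either protein listed one, at 2.68 for CTCF and 3.60 for CTCFL. Within 3 kb of the start, CTCF had a site 2876 bp after it in both mock replicates, at 5.26 and 5.69, and mock replicate 2 of CTCFL had a summit 800 bp after it, at 3.69. RNase replicate 1 also listed both, at 3.07 for CTCF and 3.82 for CTCFL. These lists were short for some libraries, with 2529 peaks in RNase replicate 2 of CTCFL.

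RAD21, a cohesin subunit, had no site at either promoter in any of the 8 conditions profiled, where 0.101% to 2.597% of all protein-coding genes had one. Replicate 2 listed 239 peaks in D of CTCFL against 20475 in replicate 1, and 182, 789, 168 and 357 in ID of CTCFL, CTCF, LCL and CLC, so a site in both replicates was rarely possible there. In 1 replicate alone, peaks lay at the Tmie intron in D of CTCF and D of CTCFL, with a fold of 4.54 and 5.32, at the Prss32 intron in D of CTCFL and D of LCL, with 4.71 and 3.99, and near Elob in D of LCL, with 3.93. In the Hi-C domain lists, Prss41 lay in a domain in 8 of 12 conditions by the Crane method and in 11 by HiCratio. Prss50 lay in a domain in 5 and 3 of 12. The domain holding Prss41 in the CTCFL line spanned 720 kb in U, I and D by the Crane method, and its start lay 204 kb from the nearer edge in U and D and 284 kb in I. By HiCratio it spanned 760 kb in U and I and 1120 kb in D, and neither method listed one in ID. The lists hold no replicates.

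Among the neighbours, all protein-coding genes whose bodies lie within 100 kb, 3 of Prss50 and 3 of Prss41 were called in some line for I against U, D against U or ID against I, as were 30.7% of the 17918 genes tested in any line. Around Prss50, 9 of 11 had a mean of at least 10 in some line, and around Prss41, 6 of 13. The others had line means of at most 9.36 around Prss50 (Prss43 and Prss46) and 5.88 around Prss41, where 3 were at 0 in every library. In the CTCFL line, 1 of the 9 tested neighbours of Prss50 rose and 1 fell for D against U, where 5.9% of all genes were called. So few genes were tested that these counts are not set apart from the background. Prss42, a testis serine protease whose start lies 59.8 kb upstream, rose from 79.5 to 221, a log2 fold change of 1.47 (SE 0.225, adjusted p = 2.96e-05). For ID against I, Prss42 had means of 150 and 124, a log2 fold change of 0.22 (SE 0.252, limma adjusted p = 0.520), and was not called. Tdgf1 (Cripto), a Nodal co-receptor, fell from 27203 to 11608, a log2 fold change of -1.23 (SE 0.0619, adjusted p = 5.12e-12), and fell again for ID against I by 1.07 on the log2 scale. Prss44 and Prss45, between Prss42 and Prss50, had means of 9.60 and 16.2 in U and 10.2 and 9.54 in D and were not called, nor were Tmie (102 and 130), the exchange factor gene Als2cl (589 and 1004), the muscle myosin light chain gene Myl3 (70.0 and 93.9) or Lrrc2 (692 and 632). Als2cl missed only the fold threshold for D against U, with a log2 fold change of 0.76 (SE 0.102, limma adjusted p = 5.65e-06). Fam240a fell in the CTCF line for I against U, from 32.6 to 6.71, a log2 fold change of -2.13 (SE 0.366, adjusted p = 0.000384). In the CTCFL line 0 of the 9 were called by limma for I against U, where 8 had an unadjusted p under 0.05 and edgeR and DESeq2 called 1, Myl3. In the CTCF line 0 were called by limma, edgeR or DESeq2 for D against U or ID against I, with 3 and 3 at an unadjusted p under 0.05. In the LCL and CLC lines 4 and 6 were tested and 0 were called by any of the 3 tools. The unadjusted p was under 0.05 for 2 and 4 of them for I against U, 0 and 3 for D against U, and 0 and 0 for ID against I.

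Around Prss41, Kremen2, a Dickkopf receptor gene of the Wnt pathway that starts 98.3 kb downstream, rose in the CTCFL line. It went from 34.1 in U to 138 in D, a log2 fold change of 2.00 (SE 0.395, adjusted p = 0.000433), and from 23.8 in I to 141 in ID, 2.68 (SE 0.442, adjusted p = 4.74e-05). For ID against I Kremen2 was also higher in the CTCF, LCL and CLC lines, by 0.86, 2.43 and 1.70 on the log2 scale. Limma called it in none of these lines, whereas edgeR and DESeq2 called it in the LCL line. Flywch2 rose for ID against I by 1.24 in the CTCFL line and 1.20 in the CTCF line, on the log2 scale. In the LCL and CLC lines its change went the other way, at -0.85 and -0.96, and was not called. Srrm2, a splicing factor gene, fell for ID against I in the LCL line by 1.06 on the log2 scale. Without ID replicate 1 its difference was -0.86, short of the fold threshold of the call. Elob (3611 in U and 3537 in D of the CTCFL line), Flywch1 (433 and 561) and Paqr4 (79.9 and 78.3) were not called in any line. For I against U, the contrast in which Prss41 fell, 0 of the 6 tested neighbours were called by limma, edgeR or DESeq2 in any line, with 4, 2, 3 and 2 at an unadjusted p under 0.05 in the CTCFL, CTCF, LCL and CLC lines. The shares of all genes called were 9.58%, 10.9%, 9.58% and 12.8%, so that 0 of 6 is close to the background. For D against U 0 were called by the 3 tools in the CTCF, LCL and CLC lines, with 4, 0 and 1 at that p, and for ID against I 0 in the CLC line, with 3. At their promoters, FLAG sites were found in 9 conditions at Als2cl, 8 at Tdgf1, 4 at Lrrc2, 8 at Kremen2, 6 at Flywch1, 5 at Srrm2, 6 at Elob and 1 at Paqr4. At Myl3, Prss42, Prss44, Prss45, Tmie, Fam240a and Flywch2 none was found, and the 9 at Prss32 are those of the shared Prss41 promoter.

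**Figure D3:**
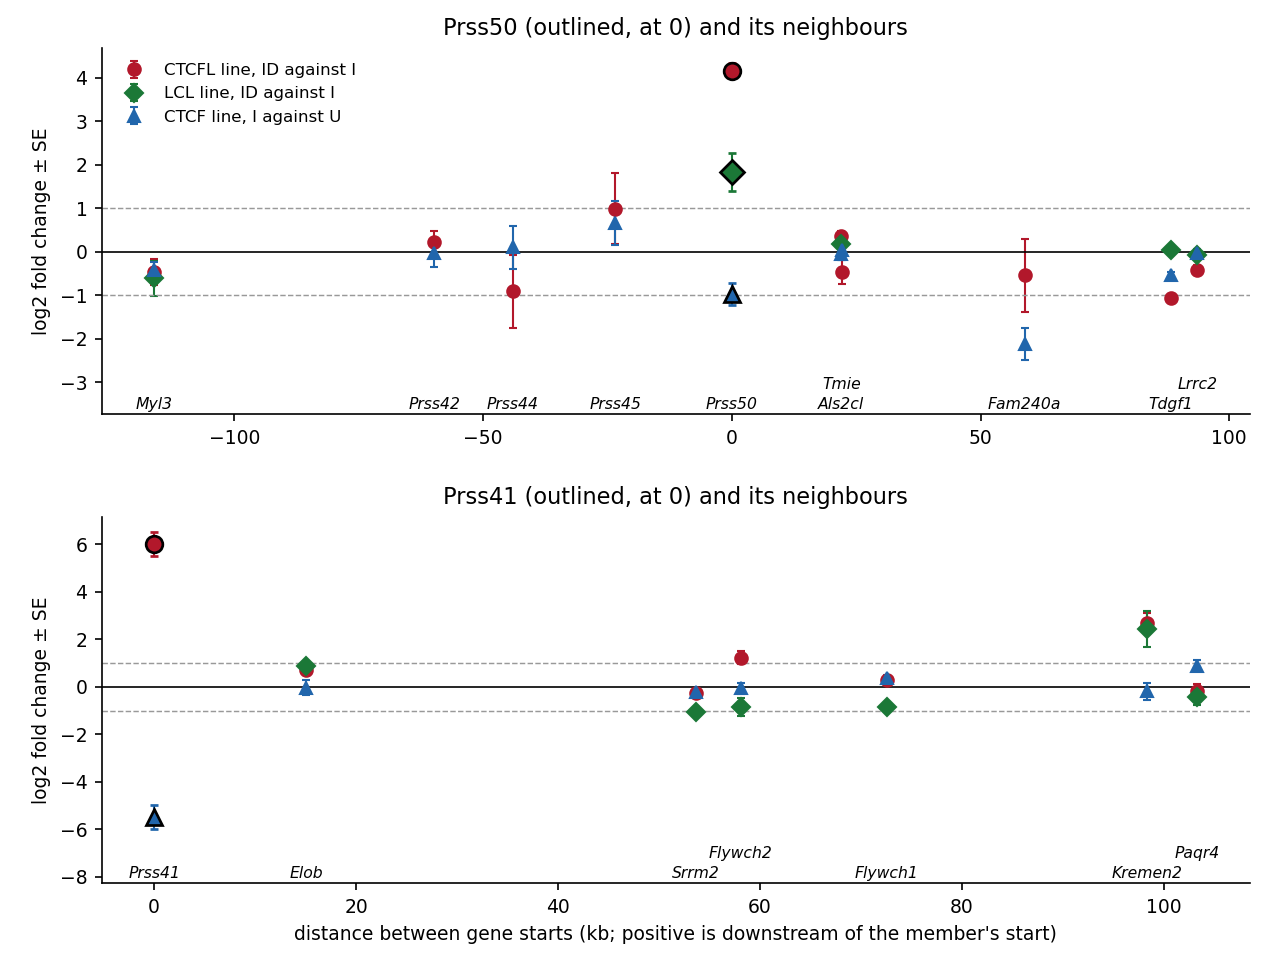
Log2 fold change with its SE (vertical axis) for Prss50 and Prss41, outlined at 0, and for their tested neighbours, against the distance between gene starts in kb, for ID against I in the CTCFL and LCL lines and I against U in the CTCF line; dashed lines mark a log2 fold change of 1. Prss50 and Prss41 were chosen for their rise in the CTCFL line, so their height there is a description; in the CTCF line Fam240a stands at -2.13 and Prss50 at -0.97.

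Other serine proteases were called in some lines and contrasts. The list held 106 other genes named Prss, Tmprss or Klk or known as trypsin-like proteases, of which 38 were tested in some line, 20 were called in some contrast and 16 were at 0 in every library. Over all genes, 30.7% were called in some contrast. In the CTCFL line 34 were tested, with 4 rising and 1 falling for D against U, where the background is 5.9%, and a median log2 fold change of 0.13 against -0.00283 over all genes. Prss48 went from 1.70 in U to 40.4 in D, a log2 fold change of 4.03 (SE 0.787), and Prss38 from 10.7 to 85.8, 3.10 (SE 0.661). For ID against I the values were 3.20 and 3.08 on the log2 scale. Both passed the filter only through D and ID, so their calls, among those counted here, are descriptions. The others that rose for D against U, Klk10 and Prss42, and for ID against I, Klk10 and Prss36, were named after their values were seen. Prss35 fell from 545 to 69.4, a log2 fold change of -2.96 (SE 0.156, adjusted p = 9.74e-12), and for ID against I it fell by 2.44 on the log2 scale, a contrast in which Htra1 fell too, also named after its values were seen.

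For I against U, 4 of 34 rose and 0 fell in the CTCFL line, 6 of 35 rose and 1 fell in the CTCF line, 6 of 26 and 0 in the LCL line, and 5 of 27 and 0 in the CLC line. The backgrounds were 9.58%, 10.9%, 9.58% and 12.8%. Why more of them rose than fell was not tested. Ctrb1, Tmprss4 and Tmprss6 in the CTCF line and Klk7 in the CLC line passed the filter only through I and ID, so their calls are descriptions. Cell type markers were called in the same contrast too, in both directions. Apart from the male germ cell markers given below, those called up were Krt18 in the CTCF, LCL and CLC lines, Cdx2 in the CTCF line, Zscan4c and Zscan4d in the CTCFL and CTCF lines, Gata6 in the LCL and CLC lines and Sox9 in the LCL line. Those called down were Otx2, a primed epiblast marker, in the CTCFL and CTCF lines, and the stem cell markers Esrrb and Sox2 in the CTCF line. The part of these markers was not tested. Tmprss6, a hepatic regulator of hepcidin, rose in all 4 lines, by 1.41, 2.07, 1.96 and 2.47 on the log2 scale in the order CTCFL, CTCF, LCL and CLC. The tryptase Tpsg1 rose by 2.18, 2.45 and 2.10 in the CTCF, LCL and CLC lines, and the kallikrein Klk7 by 2.00, 2.18 and 2.62 in the CTCFL, CTCF and CLC lines. Prss23 rose by 1.91 and 2.67 in the CTCFL and LCL lines and the chymotrypsinogen gene Ctrb1 by 2.76 in the CTCF line. The other calls for I against U, named after their values were seen, were Tmprss2 in the CTCFL line, Klk10 and Tmprss4 and the fall of Prss36 in the CTCF line, Klk10, Klk13 and Prss8 in the LCL line, and Klk11 and Prss8 in the CLC line. These calls are those of limma. In the CTCFL line edgeR and DESeq2 called Klk7 and Prss23 for I against U, but not Tmprss2 or Tmprss6. In the CTCF and LCL lines they did not call Klk10. For ID against I in the LCL line, Tmprss13 rose by 3.53 and Hpn (hepsin) fell by 2.64 on the log2 scale. Without I replicate 2, where Tmprss13 was at 0, its difference was 1.85. In the same way, the I against U difference of Tmprss6 in the CTCFL line was 0.87 without U replicate 2, and those of Tpsg1, Klk13 and Klk10 in the LCL line were 1.56, 1.02 and 0.62 without U replicate 1. Without the same library Klk13 for D against U in the LCL line was 0.98, and without U replicate 3 Tmprss2 for I against U in the CTCFL line was 0.86. Named in the same way after their values were seen, Klk10, Prss36 and Tmprss12 rose and Klk13 fell for ID against I in the LCL line, Klk13 rose for D against U in the LCL line, and Prss36 rose and Tmprss4 fell for ID against I in the CTCF line. For D against U 0 of the list were called by limma, edgeR or DESeq2 in the CTCF and CLC lines, with 7 and 7 at an unadjusted p under 0.05. For ID against I 0 were called by them in the CLC line, with 8 at that p.

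Of 6 male germ cell markers tested, 2 were called for I against U in each line, as were 2 for D against U in the CTCFL line, where 9.58%, 10.9%, 9.58%, 12.8% and 5.9% of all genes were. For D against U 0 were called by limma, edgeR or DESeq2 in the CTCF, LCL and CLC lines, with 1, 3 and 2 at an unadjusted p under 0.05. For ID against I, limma called Tex101 up in the CTCFL line and down in the CLC line, and 4 markers down in the LCL line. Of all genes, 7.83%, 1.95% and 8.49% were called in these lines, in that order. Stra8, a gene that readies germ cells for meiosis, and Tex101 rose for I against U in all 4 lines and for D against U in the CTCFL line. In the CTCFL line Stra8 had a mean of 3944 in U and 10221 in I, and of 11796 in D and 19586 in ID. The summed count of the 9 markers in this line was 9725, 9767 and 10193 in U and 16145, 16048 and 17874 in I. With doxycycline it was 17610, 18504 and 18536 in D and 28354 and 29239 in ID, with Stra8 the most abundant in each. In the LCL line the sum was 6076 and 5349 in U, 6564 and 6149 in D, 9038 and 8959 in I, and 5403 and 4390 in ID, where Dazl, Ddx4, Sycp1 and Tex101 fell. Acrv1 was at 0 in every library of the CTCFL line. Of the somatic testis markers Sox9, Amh, Cyp17a1 and Hsd3b1, the sum was at most 202. The part of these markers in the values of Prss50 and Prss41 was not tested.

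Over the 16 group means of log2(normalized count + 1), the genes most like Prss50 among 16480 were the Wnt inhibitor gene Wif1 (Pearson r = 0.941), Ctcflos (0.936), the actin-binding Ablim3 (0.936), Tmem132e (0.930) and 1700019B21Rik (0.919). Ctcflos lies opposite Ctcfl, and its reads cannot be told apart from those of Ctcfl unless the counting used strand. Wif1 had a mean of 22.6 in U and 163 in D of the CTCFL line and 18.1 in I and 241 in ID. The genes most like Prss41 were Aldh5a1 (0.957), an enzyme of GABA breakdown, B3glct (0.953), the Wnt regulator Nkd2 (0.938), the snoRNA host gene Snhg17 (0.937) and Dennd6b (0.936). Nkd2 had 89.1 in U against 4.37 in I, and 236 in D against 262 in ID, of the CTCFL line. Prss50 with Prss41 gave an r of 0.699. These points share libraries, lines and scaling and describe likeness only.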

How the data were processed

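RNA-seq, FLAG and RAD21 ChIP-seq and Hi-C domain lists were used. Reads were aligned by the study to GRCm38 (mm10) with STAR (version 2.6) for RNA and Bowtie (version 2) for ChIP. HTSeq is named, without its role, in the submitters' processing notes. The authors deposited RNA counts divided by size factors, a normalized count signal per gene, in 1 table for all lines. The steps of that signal gave back whole reads in 36 of 38 libraries, where 100% of values of up to 500 reads were whole within 0.1 of a step. I replicate 2 and ID replicate 2 of the CTCFL line gave none. Peaks were called by the authors with MACS for each replicate, and the deposited columns give fold enrichment over background (a ratio) and −log10 q. No blank or total rows and no columns of other samples were used.

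The main test was limma (version 3.58.1, R 4.3.3) on log2(normalized count + 1), in 1 fit per line over all its conditions, for genes with a line mean of at least 10. That left 16840, 16705, 15274 and 15337 genes in the CTCFL, CTCF, LCL and CLC lines. Calls needed an absolute log2 fold change above 1 and a p under 0.01 after Benjamini-Hochberg adjustment over all genes tested. edgeR (4.0.16) and DESeq2 (1.42.0) on recovered reads were alternatives, without those 2 libraries. Prss41 for D against U and ID against I, and Prss50 for I against U in the CTCFL line, were planned as tests and are given without one, as their U and I libraries entered the choice. Leaving out libraries for the proteases and neighbours was added after seeing the data. Steps were tested on simulated data. Where reads were recovered for both, replicate libraries differed beyond sampling noise, but those of U in the CLC line only slightly. Their chi-square per gene was 1.36, against 2.94 to 47.8 for the other pairs. Pairs with I replicate 2 or ID replicate 2 of the CTCFL line could not be compared in this way. Nothing states that they came from separate cultures, so p-values measure the spread between these libraries. Members and lists were chosen with earlier results of these data known. By rule the text names all neighbours within 100 kb with a line mean of at least 10, the called list proteases of largest change, at most 10, and the 5 genes most alike. The other called list proteases were added after their values were seen. Positions come from GENCODE gene models, and promoter sequences from RefSeq (GRCm38.p6), which held both genes. Columns of the authors' own comparisons were not used.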

Additional observations from a re-analysis of the deposited data

Results flagged for a closer look

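The rise of Prss50 for D against U differed between the LCL and CTCF lines by 2.19 on the log2 scale, by a limma interaction test with an adjusted p of 0.00240. This is a difference between groups under the same contrast. The counts behind it were 99.9 and 107 in D against 20.5 and 17.9 in U of the LCL line, and 87.4, 112 and 91.2 in D against 86.1 and 84.0 in U of the CTCF line. The call was lost with no filter on low values (adjusted p = 0.0128) and without any 1 of 4 libraries (adjusted p between 0.0109 and 0.0175). The D levels of the lines overlapped, while the U levels stood apart. No group had enough libraries (4 or more) to test for a library far from the others.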

How the results depend on the processing

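Depth limits Prss41: in the I libraries it rests on a few reads or none, so its fold changes there move with the pseudocount and the tool. With a pseudocount of 5, Prss41 had -2.33 (I against U) and 4.81 (ID against I) in the CTCFL line and -4.11 (I against U) and 2.10 (ID against I) in the CTCF line. edgeR and DESeq2 ran without I replicate 2 and ID replicate 2 of the CTCFL line, which left 1 ID library there. edgeR gave -4.53 and 7.34 and DESeq2 -4.64 and 7.47 for the first 2 of these. CLC minus CTCF under ID against I was -0.0677 in edgeR and -0.79 in DESeq2. For LCL minus CTCF under ID against I the sign turned, to 0.43 in edgeR and 0.12 in DESeq2, as it did for CLC minus CTCF under D against U, at 0.00695 and 0.0141. With no filter on low values, when 52459 genes are tested, Prss50 lost its calls in the LCL line (2.37, adjusted p = 0.174, and 1.83, adjusted p = 0.170) and for LCL minus CTCF (2.19, adjusted p = 0.0128). All 4 lines in 1 fit called Prss50 for D against U in the CLC line (1.29, adjusted p = 0.00681). The cause of these changes was not tested.

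The replicate numbers did not pair the libraries: correlations of their deviations ran from -0.297 to 0.162. With the replicate block, Prss50 for I against U in the CTCF line was -1.04 (adjusted p = 0.00592) and called, and Prss41 for LCL minus CTCF under D against U was -0.00203. The block gave 28 called genes against 76 (CTCF, D against U), 22 against 92 and 164 against 299 (CLC, D against U and ID against I).

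Leaving out each library in turn gave, for Prss50, -1.21 to -0.80 (I against U, CTCF), -0.81 to 0.37 (I against U, LCL), 2.28 to 2.46 (D against U, LCL), 1.24 to 2.42 (ID against I, LCL) -0.27 to 0.87 (I against U, CLC) and 0.46 to 1.60 (ID against I, CLC). It gave 2.10 to 2.301 and 0.51 to 1.69 for LCL minus CTCF (D against U and ID against I), 0.21 to 1.39 for LCL minus CLC (ID against I), and -0.27 to 0.87 for CLC minus CTCF (ID against I). The ID against I difference was called without I replicate 1 (1.69) or ID replicate 1 (1.65) of the LCL line. For Prss41 it gave -5.87 to -4.80 (I against U, CTCF), 2.63 to 3.70 (ID against I, CTCF), -3.32 to -1.61 for CLC minus CTCF (ID against I), -0.24 to 0.98 and -0.85 to 1.881 for LCL minus CLC, -3.32 to -0.58 for LCL minus CTCF (ID against I), and -0.75 to 0.47 for CLC minus CTCF (D against U).

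Counts of called genes moved by over 1.5 times with no filter for D against U in the CTCFL (563 against 994) and CTCF lines (39 against 76), for I against U, D against U and ID against I in the LCL (409, 38 and 321 against 1464, 291 and 1296) and CLC lines (999, 28 and 73 against 1962, 92 and 299), and for LCL minus CLC (D against U; 88 against 57). For D against U and ID against I in the CLC line, all 4 lines in 1 fit gave 308 and 576, DESeq2 258 and 483, and the 2 groups alone 301 and 3. DESeq2 gave 97 against 57 for LCL minus CLC and 255 against 169 for LCL minus CTCF (D against U). For D against U in the CTCF and CLC lines, further alternatives gave lower counts than any stated here. Counts for D against U also fell by over 1.5 times under some alternatives for LCL minus CLC, LCL minus CTCF and CLC minus CTCF. The number of conditions with a FLAG promoter site ran from 7 to 12 over its alternatives.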
